A study of Homo sapiens with 27 samples.

Results

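Transcripts of the citric acid cycle and of pyruvate oxidation were followed after knockdown of SIRT5 in 3 human melanoma cell lines. The gene set was chosen by symbol, as 33 genes for the enzymes of the cycle, the mitochondrial pyruvate carrier, the pyruvate dehydrogenase (PDH) complex with its kinases and phosphatases, and the reactions that feed or drain the cycle. All 33 were found among the 26004 genes of the deposited expression table. Pyruvate enters the mitochondrion through the carrier and is turned by the PDH complex into acetyl-CoA, which citrate synthase joins to oxaloacetate. The cycle then oxidises it to carbon dioxide and passes electrons to the respiratory chain, while side reactions refill or withdraw its intermediates. SIRT5, found mainly in mitochondria, strips acidic acyl marks such as succinyl groups off lysines, and many enzymes of this pathway are among its targets. RNA was measured here, not those marks.

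The 27 libraries fell into 9 groups of 3. A2058 and A375 are BRAF-mutant lines and SKMEL2 is an NRAS-mutant line. In each of them, the arms KD1 and KD2 carried one or the other of a pair of lentiviral pLKO.1 hairpins against SIRT5, and the control arm (NT) carried a hairpin against Gaussia luciferase. All cells, controls included, went through transduction and puromycin selection (1 µg/ml), with lysis 96 h after transduction. The labels name the hairpins by clone number and the table's columns name the arms KD1 and KD2, and no source used here joins those names. Libraries of an arm are separate wells per the labels, so p-values rest on well-to-well spread, part of which may be technical. Both knockdown arms of a line share its NT libraries, and an effect of the control hairpin cannot be told apart from an effect of both knockdown hairpins. In RNA from whole cultures, fewer cells expressing a gene and less RNA per cell cannot be told apart either. The values are FPKM, shown in the order of replicate numbers 1, 2 and 3. These are fragments scaled by the authors for a fixed length per gene and by a factor per library. That factor follows library depth without being proportional to it. Effects are differences on the log2(FPKM + 0.5) scale with their SE, from limma, with p-values adjusted over all genes tested. The knockdown effect of a line is the mean of KD1 and KD2 minus NT, and a gene is called when its adjusted p is under 0.05. Such a call does not require the hairpins to agree, and the difference between them does not enter its p-value.

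Depth was 29339123 to 54452938 assigned reads per library in A2058, 7096990 to 23892063 in A375 and 20183822 to 40462750 in SKMEL2, as recovered from the FPKM. SIRT5 itself, the targeted gene, was at most 0.712 FPKM in any knockdown library and at least 1.16 FPKM in any control library. Of the melanocyte lineage genes, SOX10 was present in every library (76.3 to 127 FPKM in A2058, 177 to 316 in A375 and 149 to 160.0 in SKMEL2), as was S100B (at least 27.9 FPKM). The pigment genes TYR and DCT were at most 0.0706 FPKM in A375 and at least 7.38 FPKM in the other lines. MITF, PMEL, MLANA, TYRP1 and GPR143 were also lowest in A375, some by less. MITF reached 4.35 and PMEL 6.11 FPKM there. GPR143 was 0.0718 to 0.310 FPKM in A375, 0.337 to 1.25 in A2058 and 10.4 to 31.7 in SKMEL2, and MLANA was 3.25 to 7.36 FPKM in A2058. Of the 12 markers of other cell types in the table, those above 2 FPKM in any library were LUM in A2058, KRT14 in A375, and CD14, CDH1 and KRT14 in SKMEL2. The A375 KD2 libraries resembled each other least. The mean correlation with the other libraries of its arm was 0.966 for A375 KD2 replicate 3, against 0.972 to 0.993 for the other 26. A375 KD2 replicate 1 was the shallowest library (7096990 reads), and 1 raw file of A375 NT replicate 2 was truncated, per the labels.

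In A2058, 9 of 31 tested members rose and 18 fell as the mean of both hairpins, where 34.6% of all genes tested rose and 34.7% fell. The 18 include DLD and PDK3, which were called up with KD1 and down with KD2. The members' median effect was -0.28, beside -0.0065 over all genes. In SKMEL2, 5 of 31 tested members rose and 14 fell, beside 32.9% and 32.4% of all genes, with a median of -0.10 against 0.0033. The 14 include PC, which was called up with KD1 and down with KD2. In A375, 8 of 32 tested members rose and 10 fell, beside 26.2% and 21.7% of all genes, with a median of -0.086 against 0.016. These A375 counts moved with single libraries: 11 rose and 12 fell without KD2 replicate 3, 5 and 6 without NT replicate 1, 6 and 5 without NT replicate 2, and 8 and 5 without NT replicate 3. The filter on low values was passed by OGDHL in no single line, by ME3 not in A2058 and by PDK4 not in SKMEL2.

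As the mean of both hairpins, IDH1, SUCLG2, PDHA1, DLAT and PCK2 fell in all 3 lines, 5 of 30 members tested in each, where 10.5% of all such genes fell. By the same limma tests 0 of the 30 rose in all 3 lines, where 10.7% of all such genes rose, and 0 rose at an unadjusted p under 0.05 and 1 (IDH3G) by limma-voom. Among the decreases, limma-voom did not call PDHA1 in A375 (adjusted p = 0.056), while it called PDK1 down in all 3 lines. IDH1 and DLAT fell with each hairpin alone in each line, 2 members beside 2.58% of all genes. Rising with each hairpin alone in each line were 0 members by limma, beside 4.13% of all genes, and 0 at an unadjusted p under 0.05. Averaged over the lines in a fit of all 27 libraries, 11 of 33 members rose and 17 fell, beside 32.0% and 32.0% of all genes. At the pseudocount of 0.5, the effects furthest from 0 in that average were those of PDK4 (-1.42 ± 0.13), IDH1 (-0.89 ± 0.041), PCK2 (-0.73 ± 0.066) and SUCLG2 (-0.73 ± 0.048) among the decreases, and of PC (0.69 ± 0.056) and ME3 (0.64 ± 0.050) among the increases. This order depends on the pseudocount, since low values count for more with 0.1, where OGDHL came to -1.08, IDH1 to -0.92, ME3 to 0.78 and PC to 0.71. At 0.5 the 6 limma adjusted p-values lay between 5.8e-14 and 3.7e-09.

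**Figure D1:**
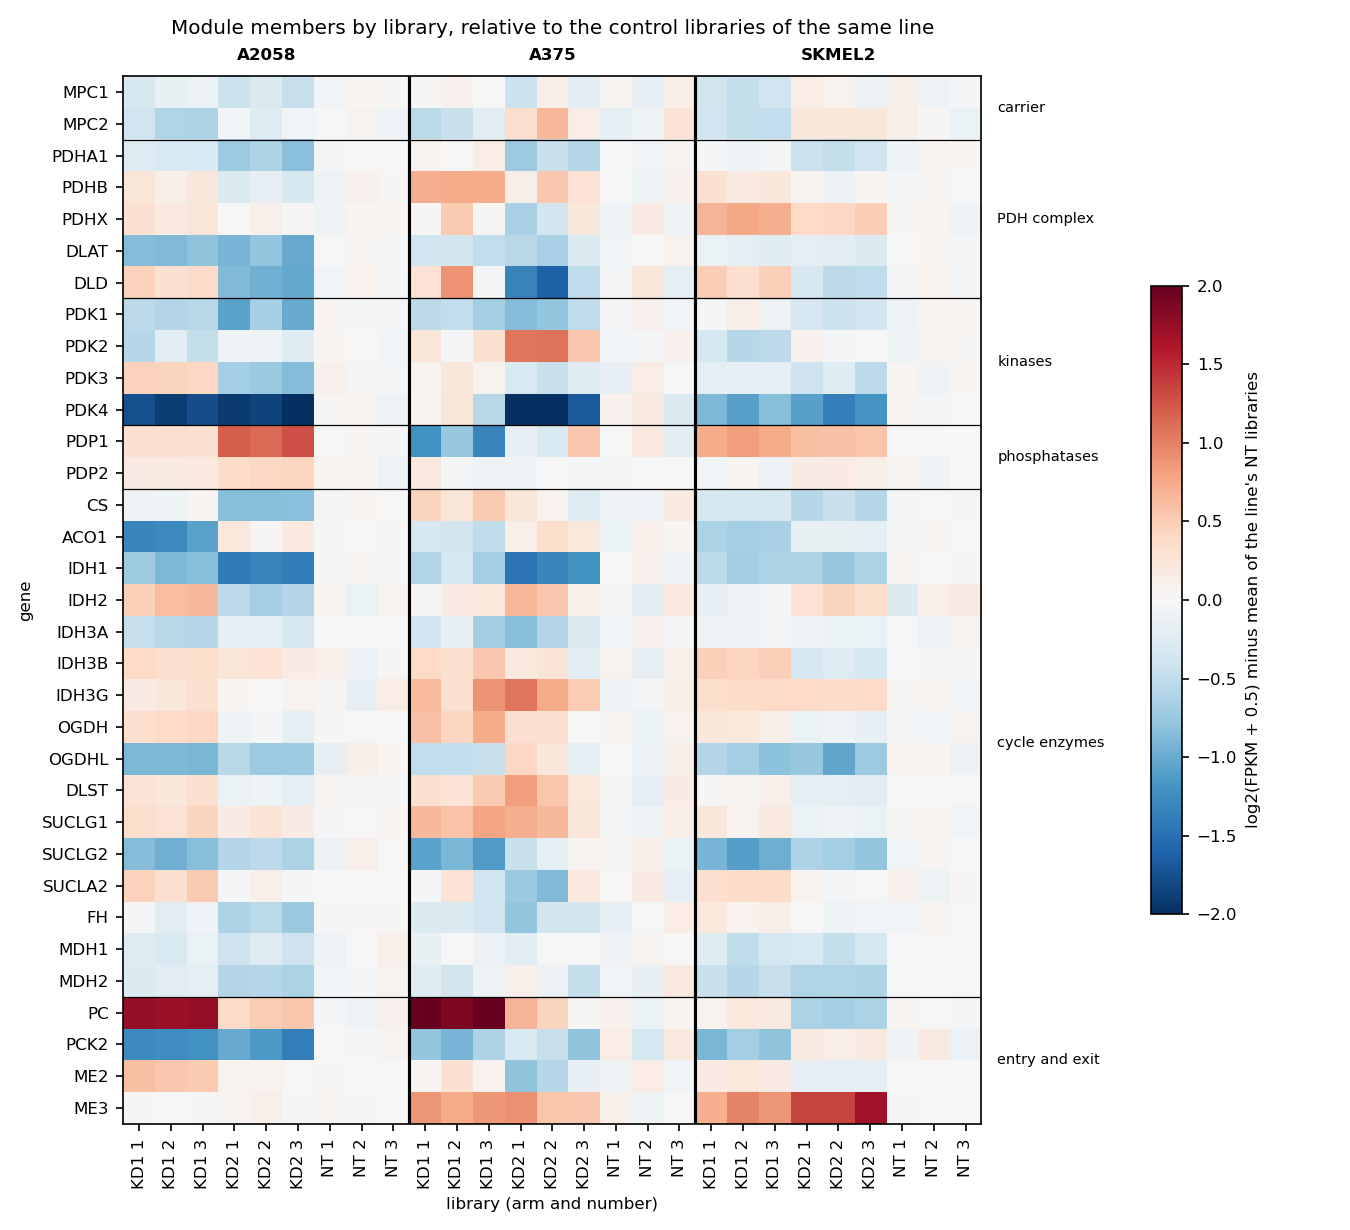
Expression of the 33 members (rows, by role) in the 27 libraries (columns, KD1, KD2 and NT of each line), as log2(FPKM + 0.5) minus the mean of the 3 NT libraries of the line, with red above and blue below it and the colour ending at 2 in either direction. IDH1 and DLAT are blue in all knockdown libraries of the 3 lines, SUCLG2 in all but A375 KD2 replicate 3, while PC is red in A2058 and in A375 KD1 and blue in SKMEL2 KD2.

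**Figure D2:**
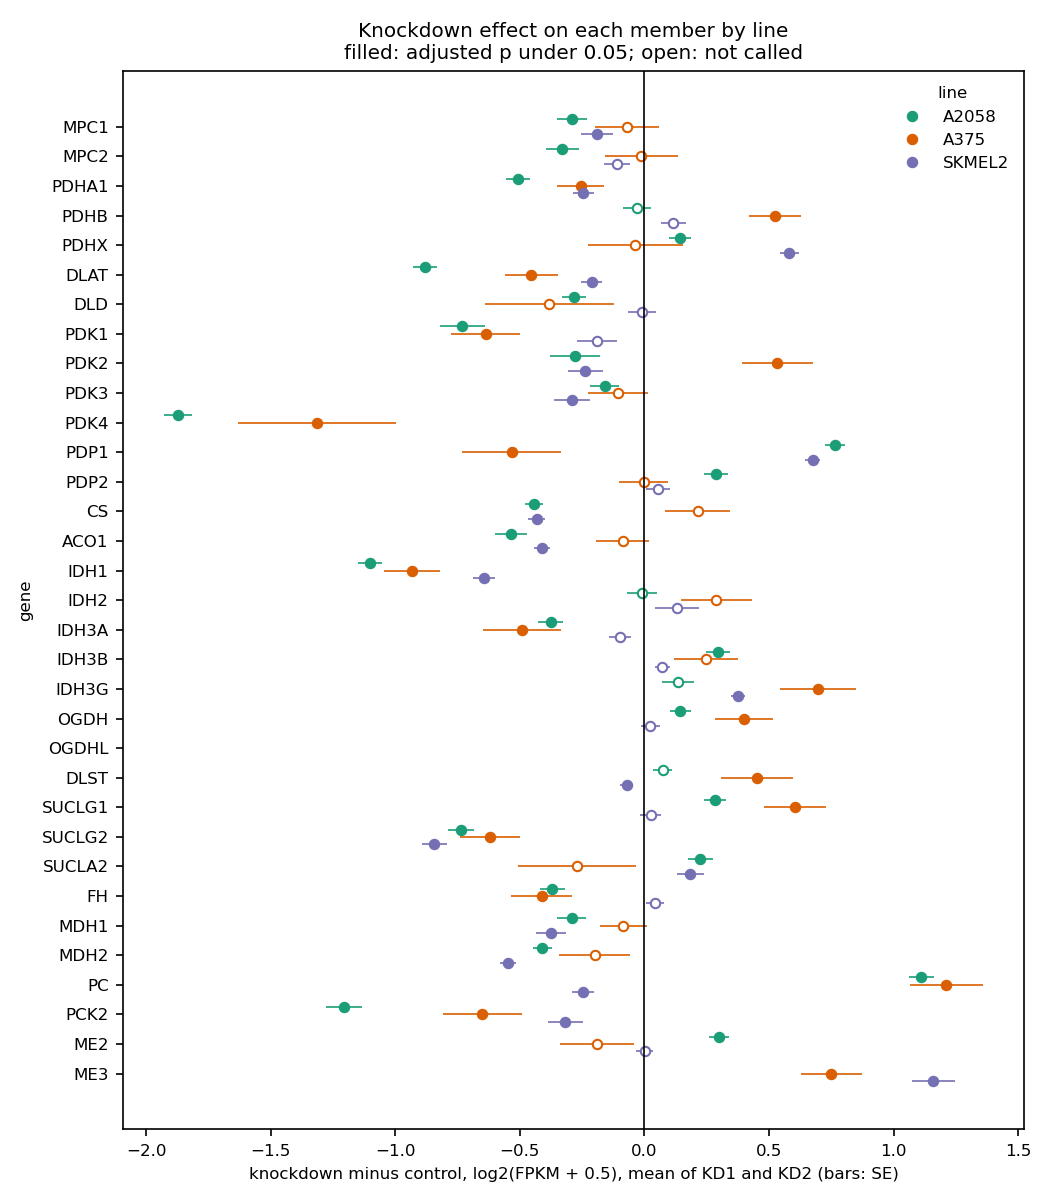
Knockdown effect (mean of KD1 and KD2 minus NT, log2 scale, horizontal axis) of each member (vertical axis) in A2058, A375 and SKMEL2, from limma fits of 9 libraries per line. Bars are SE and filled points have an adjusted p under 0.05. PDK4 in A2058 lies furthest to the left at -1.87 and PC in A375 furthest to the right at 1.21.

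MPC1 and MPC2 form the carrier that brings pyruvate across the inner mitochondrial membrane. Both fell in A2058, MPC1 by 0.29 and MPC2 by 0.33 on the log2 scale (limma adjusted p = 0.0012 and 0.0013). MPC1 also fell in SKMEL2, by 0.19 (limma adjusted p = 0.027), a call lost without NT replicate 1 (adjusted p = 0.13). There KD1 gave -0.41 ± 0.074 and KD2 0.036 ± 0.074, and the hairpins differed by -0.45 ± 0.074 (limma adjusted p = 0.00044). MPC2 in A2058 was called with KD1 (-0.54 ± 0.078) and not with KD2 (-0.12 ± 0.078). In SKMEL2 the MPC2 values were 8.98, 8.36 and 8.34 FPKM in KD1, 13.99, 14.1 and 14.05 in KD2 and 12.9, 12.1 and 10.8 in NT. All KD1 libraries lay below and all KD2 libraries above the controls there, and KD1 was under KD2 by 0.68 (limma adjusted p = 6.3e-06). MPC2 shares 21.8% of its exonic length with DCAF6 on the other strand, and the sources used here do not say whether counting was by strand.

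The PDH complex joins an E1 heterotetramer (PDHA1 and PDHB), the acetyl-transferring core E2 (DLAT), the E3-binding protein (PDHX) and E3 (DLD), which reoxidises the lipoyl arm and also serves the oxoglutarate and branched-chain complexes. The subunits took different directions. DLAT (ENSG00000150768, GRCh38 chromosome 11, 112025408 to 112064404, plus strand) was lower in each knockdown arm of each line. In A2058 DLAT had 17.3, 16.98 and 18.1 FPKM in KD1, 16.6, 18.2 and 15.5 in KD2 and 31.6, 32.99 and 31.1 in NT. In A375 DLAT had 9.78, 10.002 and 9.07 FPKM in KD1, 8.65, 8.12 and 10.7 in KD2 and 12.4, 12.9 and 13.6 in NT. In SKMEL2, where the gene was lowest, DLAT had 4.82, 4.64 and 4.42 FPKM in KD1, 4.64, 4.496 and 4.304 in KD2 and 5.35, 5.51 and 5.202 in NT. No knockdown library reached the controls of its line, in any of the 3. The effect was -0.88 ± 0.050 in A2058, -0.45 ± 0.11 in A375 and -0.21 ± 0.042 in SKMEL2 (limma adjusted p = 1.2e-07, 0.0063 and 0.0015), and it differed between the lines (F-test, limma adjusted p = 1.6e-05). The difference between KD1 and KD2 did not pass the test for DLAT in any line, at 0.059 ± 0.058, 0.077 ± 0.12 and 0.042 ± 0.048 in the same order of lines. DLAT shares 13.3% of its exonic length with PIH1D2 on the other strand.

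DLD (ENSG00000091140, GRCh38 chromosome 7, 107891162 to 107931730, plus strand) separated the hairpins in each line. A2058 gave DLD values of 55.1, 49.4 and 52.2 FPKM in KD1, 21.5, 20.1 and 19.4 in KD2 and 38.4, 42.04 and 39.04 in NT. A375 gave DLD values of 17.6, 27.2 and 14.2 FPKM in KD1, 5.37, 4.35 and 10.004 in KD2 and 14.04, 16.9 and 12.5 in NT. SKMEL2 gave DLD values of 22.6, 20.2 and 22.5 FPKM in KD1, 12.6, 10.97 and 11.1 in KD2 and 15.6, 16.7 and 15.6 in NT. In A2058 and SKMEL2 every KD1 library stood above and every KD2 library below the controls, and in A375 KD2 stood below them while KD1 overlapped them. KD1 exceeded KD2 by 1.34 ± 0.056, 1.54 ± 0.30 and 0.88 ± 0.064 in A2058, A375 and SKMEL2 (limma adjusted p = 1.0e-08, 0.0027 and 1.7e-06). The mean over both hairpins therefore averages opposite directions, at -0.28 ± 0.048 in A2058 and -0.0087 ± 0.055 in SKMEL2.

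Of the E1 subunits, PDHA1 fell in each line as the mean of both hairpins, by 0.51, 0.26 and 0.25 on the log2 scale in A2058, A375 and SKMEL2 (limma adjusted p = 5.1e-06, 0.047 and 0.00055). Both hairpins lowered it in A2058, but in A375 and SKMEL2 only KD2 was called (-0.58 ± 0.11 and -0.43 ± 0.048), with KD1 at 0.071 ± 0.11 and -0.059 ± 0.048. KD1 and KD2 differed for PDHA1 in both of these lines (limma adjusted p = 0.0012 and 7.8e-05). Its partner PDHB was not called lower over both hairpins in any line. PDHB rose in A375 to 33.02, 33.5 and 33.4 FPKM in KD1 and 21.6, 28.97 and 24.3 in KD2, against 19.8, 18.7 and 21.1 in NT (0.52 ± 0.11, limma adjusted p = 0.0031), and its effect was -0.030 ± 0.055 in A2058 and 0.12 ± 0.050 in SKMEL2, neither called. In A2058 PDHB rose with KD1 (0.20 ± 0.063) and fell with KD2 (-0.26 ± 0.063, limma adjusted p = 0.017 and 0.0040). PDHX rose in SKMEL2, where all 6 knockdown libraries (15.8 to 20.5 FPKM) were above all 3 controls (11.2 to 12.2 FPKM), by 0.58 ± 0.039 (limma adjusted p = 1.5e-06). The A375 decrease of PDHA1 lost its call when any library other than KD2 replicate 2 or 3 was left out, with adjusted p-values of up to 0.15. PDHX was also called up in A2058 (0.14 ± 0.044, limma adjusted p = 0.013), with KD1 alone called, though not without NT replicate 1 (adjusted p = 0.079). PDHA1 shares 19.3% of its exonic length with MAP3K15 on the other strand.

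The PDH kinases PDK1 to PDK4 phosphorylate E1 and switch the complex off. PDK4 (ENSG00000004799, GRCh38 chromosome 7, 95583499 to 95596516, minus strand), the isoform induced by fasting and fatty acids, had the largest decrease of the module over the lines at each of the 3 pseudocounts and by limma-voom. In A2058 PDK4 stood at 18.9, 17.2 and 18.7 FPKM in KD1, 17.001, 17.7 and 15.5 in KD2 and 66.7, 68.7 and 60.7 in NT. In A375 PDK4 stood at 8.101, 9.43 and 5.19 FPKM in KD1, 0.337, 0.889 and 2.13 in KD2 and 8.43, 9.03 and 6.48 in NT. In SKMEL2 PDK4 stood at 0.2396, 0.149 and 0.2602 FPKM in KD1, 0.152, 0.0332 and 0.111 in KD2 and 0.921, 0.835 and 0.878 in NT. A2058 and SKMEL2 knockdown libraries were all below their controls with either hairpin, whereas in A375 the KD1 libraries overlapped the controls and the KD2 libraries were below them. KD1 kept 27.99% and KD2 25.6% of the A2058 control mean. The effect was -1.87 ± 0.055 in A2058 (limma adjusted p = 3.0e-09) and -1.31 ± 0.32 in A375 (limma adjusted p = 0.0076). The A375 value was carried by KD2, with -2.53 ± 0.37 for KD2 and -0.10 ± 0.37 for KD1, and the hairpins differed by 2.44 ± 0.37 (limma adjusted p = 0.00062). In SKMEL2, PDK4 was too low for the test. It was counted there with 48, 15 and 38 reads in KD1 and 25, 6 and 12 in KD2, against 155, 126 and 152 in NT.

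PDK1 (ENSG00000152256, GRCh38 chromosome 2, 172555373 to 172608669, plus strand), a target of the hypoxia-inducible factor, fell in A2058 and A375. In A2058 PDK1 measured 2.02, 1.91 and 1.96 FPKM in KD1, 1.23, 1.79 and 1.298 in KD2 and 3.22, 3.05 and 3.06 in NT. In A375 PDK1 measured 0.777, 0.803 and 0.644 FPKM in KD1, 0.504, 0.5695 and 0.784 in KD2 and 1.29, 1.44 and 1.26 in NT. In SKMEL2 PDK1 measured 1.11, 1.31 and 1.05 FPKM in KD1, 0.813, 0.738 and 0.773 in KD2 and 1.04, 1.22 and 1.22 in NT. The knockdown libraries of A2058 and A375 were all under their controls, while SKMEL2 KD1 overlapped its own. The A2058 and A375 effects were -0.73 ± 0.090 and -0.64 ± 0.14 (limma adjusted p = 3.7e-05 and 0.0044). SKMEL2 PDK1 was not called over both hairpins (-0.19 ± 0.080, limma adjusted p = 0.059), and KD2 alone was lower by 0.38 (limma adjusted p = 0.0052). At values near 1 FPKM the added 0.5 makes these log2 differences smaller than those of the FPKM themselves, and limma-voom on recovered reads gave -0.96 in A375 and -0.30 in SKMEL2 (adjusted p = 0.00054 and 0.0016).

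PDK2, the most widely expressed isoform, went in opposite directions between lines. It rose in A375 to 5.49, 4.44 and 5.73 FPKM in KD1 and 10.1, 10.2 and 6.87 in KD2, against 4.36, 4.47 and 4.87 in NT. That increase (0.53 ± 0.14, limma adjusted p = 0.012) came with KD2, which exceeded KD1 (-0.73 ± 0.16 for KD1 minus KD2, limma adjusted p = 0.0062). In A2058 and SKMEL2 PDK2 fell by 0.28 and 0.24 (limma adjusted p = 0.030 and 0.015). In both lines KD1 was called (-0.42 ± 0.12 and -0.48 ± 0.083), KD2 was not (-0.13 ± 0.12 and 0.0091 ± 0.083), and the hairpins differed (limma adjusted p = 0.046 and 0.00049). The difference between lines passed its own test (F-test, limma adjusted p = 0.00011). The A2058 call was lost without any of 6 libraries (NT replicates 1 to 3, KD1 replicates 1 and 3, KD2 replicate 3), with adjusted p up to 0.096, and after quantile normalization (-0.17, adjusted p = 0.14). The SKMEL2 call was lost without NT replicate 2 (0.069) or 3 (0.057), and the A375 call without NT replicate 1 (0.054, all adjusted p). PDK2 shares 38.6% of its exonic length with SAMD14 on the other strand, so both genes' reads may be mixed.

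PDK3 in A2058 split by hairpin, with 6.42, 6.32 and 6.14 FPKM in KD1, 2.64, 2.51 and 2.23 in KD2 and 4.79, 4.36 and 4.38 in NT. KD1 libraries were all above and KD2 libraries all below the controls, and KD1 exceeded KD2 by 1.20 ± 0.067 (limma adjusted p = 6.9e-08). A375 PDK3 was 1.91, 2.16 and 1.904 FPKM in KD1, 1.34, 1.18 and 1.41 in KD2 and 1.54, 2.03 and 1.803 in NT. SKMEL2 PDK3 was 1.42, 1.48 and 1.42 FPKM in KD1, 1.15, 1.36 and 1.04 in KD2 and 1.76, 1.605 and 1.76 in NT. The hairpins differed the same way in A375 (0.46 ± 0.14) and SKMEL2 (0.21 ± 0.083), with limma adjusted p = 0.025 and 0.049, and all KD1 libraries were above all KD2 libraries in each line. Since FPKM are per length, the 4 kinases can be summed, but the sum and the shares depend on the fixed length used for each gene. PDK4 made up 66.4% ± 1.62 of the kinase FPKM in A2058 KD1 and 76.2% ± 0.443 in KD2, against 87.7% ± 0.668 in NT (SD, n = 3 each). The A2058 sum was 27.6 ± 0.792 FPKM in KD1 and 21.9 ± 1.58 in KD2, against 74.5 ± 4.29 in NT. The PDK4 share in A375 was 48.1% ± 8.84 in KD1 and 9.57% ± 8.47 in KD2, against 50.7% ± 4.99 in NT. These shares were chosen for display after the values were seen and were not tested.

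**Figure D3:**
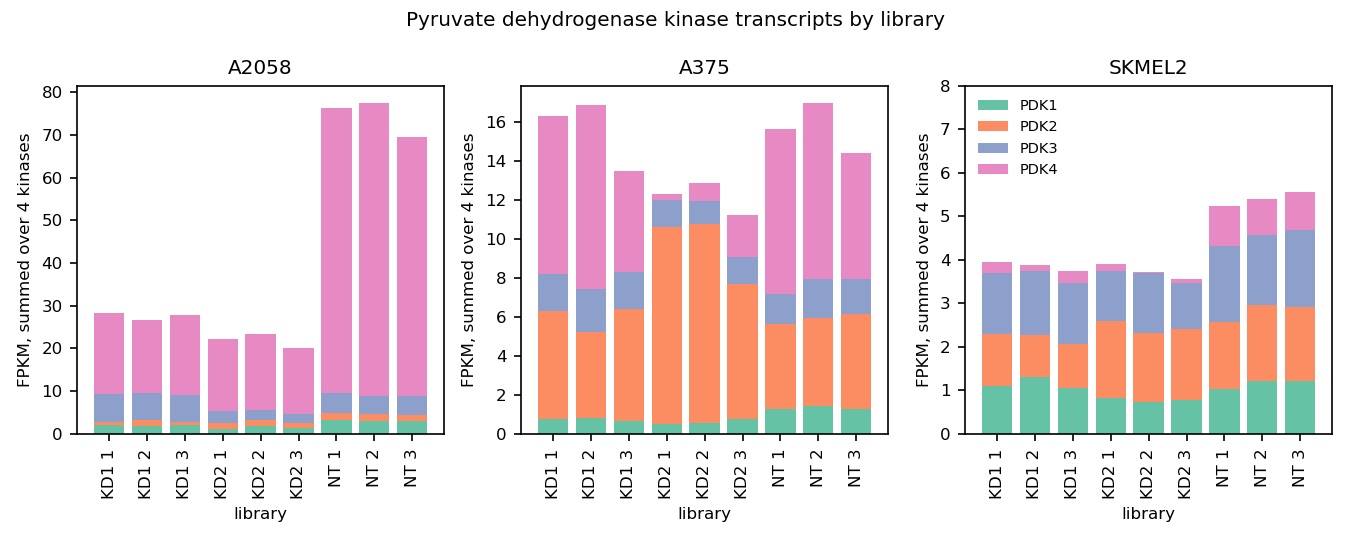
FPKM of PDK1 to PDK4, stacked, in each library of A2058, A375 and SKMEL2 (KD1, KD2, NT from left to right; vertical axes differ between lines and start at 0). In A2058 the PDK4 segment is 15.5 to 18.9 FPKM tall in the knockdown libraries and 60.7 to 68.7 FPKM in the controls, and in A375 KD2 most of the bar is PDK2.

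The phosphatases PDP1 and PDP2 remove the inhibitory phosphates again. PDP1 (ENSG00000164951) rose in A2058 and SKMEL2. Its A2058 values were 28.4, 29.2 and 28.4 FPKM in KD1, 53.6, 50.8 and 56.9 in KD2 and 22.7, 23.7 and 22.4 in NT. Its SKMEL2 values were 38.995, 41.7 and 39.2 FPKM in KD1, 35.3, 35.1 and 34.2 in KD2 and 23.2, 23.02 and 23.4 in NT. Its A375 values were 10.8, 14.97 and 9.94 FPKM in KD1, 22.9, 20.8 and 37.6 in KD2 and 25.7, 29.5 and 22.2 in NT. Every knockdown library of A2058 and SKMEL2 was above its controls, and in A375 KD1 was below the controls while KD2 overlapped them, with replicate 3 of KD2 the highest. The effects were 0.76 ± 0.040 in A2058, 0.68 ± 0.030 in SKMEL2 and -0.53 ± 0.20 in A375 (limma adjusted p = 7.7e-08, 1.6e-07 and 0.0496). The A375 decrease came from KD1 (-1.10 ± 0.23, limma adjusted p = 0.0034), with KD2 at 0.030 ± 0.23, and leaving out any library other than KD1 replicate 2 or KD2 replicate 3 ended its call (adjusted p up to 0.18). The lines differed (F-test, limma adjusted p = 6.1e-06). PDP2 rose in A2058 by 0.29 ± 0.048 (limma adjusted p = 0.00033) and was not called in A375 (-0.0028 ± 0.10) or SKMEL2 (0.054 ± 0.047).

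Citrate synthase (CS), which opens the cycle, fell in A2058 (-0.44 ± 0.036) and SKMEL2 (-0.43 ± 0.034), with limma adjusted p = 1.7e-06 and 4.0e-06. In A2058 the fall was that of KD2, at 21.7, 21.9 and 22.2 FPKM against 39.1, 40.8 and 39.3 in NT, while KD1 overlapped the controls (-0.042 ± 0.042, limma adjusted p = 0.39). In A375 CS was not called over both hairpins (0.21 ± 0.13, limma adjusted p = 0.20). There it was called up with KD1 (0.41 ± 0.15, limma adjusted p = 0.049), with KD2 at 0.021 ± 0.15. ACO1, the cytosolic aconitase that doubles as iron regulatory protein, was lower with KD1 than with KD2. Its A2058 values were 2.13, 2.18 and 2.57 FPKM in KD1, 7.02, 6.08 and 6.905 in KD2 and 5.89, 5.995 and 6.05 in NT. KD1 was below the controls there, while KD2 lay above them without passing the test (0.14 ± 0.075, limma adjusted p = 0.11). In SKMEL2 ACO1 fell with both hairpins, by 0.65 with KD1 and 0.17 with KD2 (limma adjusted p = 5.4e-07 and 0.0035). KD1 minus KD2 was -1.36 ± 0.075 in A2058, -0.62 ± 0.12 in A375 and -0.49 ± 0.038 in SKMEL2 (limma adjusted p = 6.6e-08, 0.0030 and 2.9e-06).

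The isocitrate dehydrogenases fall into the NADP-linked IDH1 (cytosol and peroxisomes) and IDH2 (mitochondria), and the NAD-linked IDH3 of the cycle proper, made of IDH3A, IDH3B and IDH3G. IDH1 (ENSG00000138413, GRCh38 chromosome 2, 208236229 to 208266074, minus strand) fell in each arm of each line. In A2058 IDH1 was 21.6, 18.9 and 19.5 FPKM in KD1, 13.04, 13.8 and 13.3 in KD2 and 35.003, 37.2 and 34.9 in NT. In A375 IDH1 was 7.97, 9.67 and 7.59 FPKM in KD1, 4.15, 4.73 and 5.16 in KD2 and 12.4, 13.2 and 11.7 in NT. In SKMEL2 IDH1 was 13.03, 11.7 and 12.3 FPKM in KD1, 12.3, 11.2 and 12.3 in KD2 and 19.7, 19.2 and 18.7 in NT. No knockdown library of any line overlapped its controls. The effects were -1.10 ± 0.048, -0.93 ± 0.11 and -0.64 ± 0.044 in A2058, A375 and SKMEL2 (limma adjusted p = 2.1e-08, 0.00019 and 1.8e-06), and the lines differed (F-test, limma adjusted p = 0.0019). KD1 was above KD2 in A2058 and A375, by 0.56 ± 0.055 and 0.78 ± 0.13 (limma adjusted p = 5.3e-06 and 0.0011), and in SKMEL2 the difference was 0.044 ± 0.051 (limma adjusted p = 0.47).

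IDH2 (ENSG00000182054, GRCh38 chromosome 15, 90083045 to 90102477, minus strand) was not called over both hairpins in any line. A2058 gave IDH2 values of 38.9, 43.3 and 44.2 FPKM in KD1, 19.2, 17.2 and 18.4 in KD2 and 29.2, 25.5 and 29.2 in NT. A375 gave IDH2 values of 10.4, 11.4 and 11.9 FPKM in KD1, 16.4, 14.98 and 10.95 in KD2 and 10.3, 8.69 and 11.7 in NT. SKMEL2 gave IDH2 values of 6.67, 7.05 and 7.41 FPKM in KD1, 9.38, 10.4 and 9.81 in KD2 and 6.201, 8.16 and 8.55 in NT. The A375 arms overlapped. In A2058 KD1 was above and KD2 below the controls, and KD1 exceeded KD2 by 1.18 ± 0.069 (limma adjusted p = 9.3e-08). In SKMEL2 the order was the opposite, with KD1 minus KD2 at -0.46 ± 0.10 (limma adjusted p = 0.0027). As a level per length, IDH1 over IDH2 was 0.477 in A2058 KD1 and 0.737 in KD2, against 1.28 in NT. The same ratio was 1.75 and 1.21, against 2.57, in SKMEL2, and 0.7502 and 0.346, against 1.24, in A375. It was lower in both knockdown arms than in the controls of each line, as a description of arm means.

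Within IDH3 the subunits diverged. The catalytic IDH3A fell in A2058 (-0.38 ± 0.049) and A375 (-0.49 ± 0.16), with limma adjusted p = 5.7e-05 and 0.027. In A375 IDH3A was called with KD2 (-0.57 ± 0.18) and not with KD1 (-0.41 ± 0.18). The A375 call was lost without NT replicate 1, 2 or 3 or KD2 replicate 2 (adjusted p = 0.065, 0.10, 0.063 and 0.051). IDH3A shares 38.2% of its exonic length with ACSBG1 on the other strand. The regulatory IDH3G (ENSG00000067829, GRCh38 chromosome X, 153785766 to 153794512, minus strand) rose in A375 and SKMEL2. In A375 IDH3G had 36.2, 29.3 and 43.98 FPKM in KD1, 49.4, 39.2 and 33.4 in KD2 and 21.9, 22.6 and 25.3 in NT. In SKMEL2 IDH3G had 21.6, 21.8 and 22.1 FPKM in KD1, 22.4, 21.8 and 22.1 in KD2 and 17.04, 17.2 and 16.2 in NT. In A2058 IDH3G had 18.8, 19.6 and 20.99 FPKM in KD1, 17.2, 16.7 and 17.54 in KD2 and 16.99, 14.8 and 18.6 in NT. All knockdown libraries of A375 and SKMEL2 were above their controls (0.70 ± 0.15 and 0.37 ± 0.029, limma adjusted p = 0.0049 and 3.7e-06). In A2058, where KD1 was above the controls and KD2 overlapped them, the effect of IDH3G was 0.14 ± 0.065 (limma adjusted p = 0.084). IDH3B, the other regulatory subunit, rose in A2058 with both hairpins (0.30 ± 0.049, limma adjusted p = 0.00030, or 0.16 after quantile normalization), while in SKMEL2 it rose with KD1 (0.46 ± 0.034) and fell with KD2 (-0.32 ± 0.034), with limma adjusted p = 2.0e-06 and 2.9e-05.

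Oxoglutarate dehydrogenase is built like PDH, with OGDH as E1, DLST as E2 and the shared DLD as E3. OGDH and DLST were higher with KD1 in A2058 (0.38 ± 0.049 and 0.28 ± 0.044, limma adjusted p = 4.4e-05 and 0.00022). With KD2 in that line DLST fell (-0.13 ± 0.044, limma adjusted p = 0.023) and OGDH did not pass (-0.093 ± 0.049, limma adjusted p = 0.11). In A375 both rose over the hairpins, OGDH by 0.40 ± 0.12 and DLST by 0.45 ± 0.14 (limma adjusted p = 0.019 and 0.027). OGDH was called there with KD1 alone (0.58 ± 0.14, against 0.22 ± 0.14 with KD2) and DLST with KD2 alone (0.53 ± 0.17, against 0.37 ± 0.17 with KD1), and after quantile normalization the means were 0.17 and 0.25. The A375 call of OGDH was lost without NT replicate 1 or 2 (adjusted p = 0.051 and 0.097) and that of DLST without NT replicate 1 or 2, KD1 replicate 3 or KD2 replicate 2 (adjusted p of up to 0.13). In SKMEL2 DLST fell by 0.072 (limma adjusted p = 0.039), a call kept only without KD1 replicate 3 or KD2 replicate 2 among the 9 libraries left out in turn (adjusted p otherwise up to 0.12). OGDHL, a related E1 most abundant in brain, was at most 1.19 FPKM throughout. Its reads numbered 7, 11 and 6 in A2058 KD1 and 36, 23 and 21 in KD2, against 79, 151 and 98 in NT. In SKMEL2 the OGDHL reads numbered 127, 56 and 66 in KD1 and 82, 54 and 56 in KD2, against 230, 201 and 196 in NT, and over the 3 lines OGDHL fell by 0.57 (limma adjusted p = 4.8e-08). At these low values the size rests on the pseudocount, with -1.08 at 0.1 and -0.37 at 1, and limma-voom on recovered reads gave -1.56.

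Succinyl-CoA synthetase, which makes succinate and the one nucleotide triphosphate of the cycle, pairs the alpha subunit SUCLG1 with a beta subunit, SUCLG2 for the GTP-forming and SUCLA2 for the ATP-forming enzyme. SUCLG2 (ENSG00000172340, GRCh38 chromosome 3, 67360460 to 67654612, minus strand) fell in each line. In A2058 SUCLG2 was 16.3, 15.3 and 16.5 FPKM in KD1, 19.9, 20.7 and 19.2 in KD2 and 27.8, 32.4 and 30.3 in NT. In A375 SUCLG2 was 10.1, 11.3 and 9.67 FPKM in KD1, 15.9, 18.96 and 22.5 in KD2 and 22.04, 23.6 and 19.9 in NT. In SKMEL2 SUCLG2 was 11.9, 10.4 and 11.4 FPKM in KD1, 14.9, 14.1 and 13.3 in KD2 and 22.04, 23.8 and 23.1 in NT. The arms did not overlap the controls in A2058 and SKMEL2, whereas A375 KD2 did, through its replicate 3. The effects were -0.74 ± 0.052, -0.62 ± 0.12 and -0.84 ± 0.049 in A2058, A375 and SKMEL2 (limma adjusted p = 5.3e-07, 0.0028 and 7.1e-07), while the F-test between lines did not pass (limma adjusted p = 0.23). In A375 KD2 alone was not called (-0.20 ± 0.14, limma adjusted p = 0.27). KD1 was below KD2 in each line, by 0.30, 0.84 and 0.31 (limma adjusted p = 0.00090, 0.0012 and 0.00081).

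SUCLG1 (ENSG00000163541, GRCh38 chromosome 2, 84423528 to 84460045, minus strand) rose where SUCLG2 fell in A2058 and A375. In A2058 SUCLG1 read 22.1, 20.97 and 23.5 FPKM in KD1, 19.1, 20.7 and 19.3 in KD2 and 16.7, 16.98 and 17.6 in NT. In A375 SUCLG1 read 24.7, 23.3 and 27.1 FPKM in KD1, 26.04, 24.6 and 18.5 in KD2 and 15.1, 14.6 and 17.1 in NT. SKMEL2 SUCLG1 read 21.1, 18.9 and 20.7 FPKM in KD1, 16.4, 16.8 and 16.4 in KD2 and 18.2, 18.5 and 17.2 in NT. All knockdown libraries of A2058 and A375 were above their controls (0.28 ± 0.045 and 0.60 ± 0.12, limma adjusted p = 0.00024 and 0.0034). In SKMEL2, where KD1 lay above and KD2 below the controls, it was not called (0.025 ± 0.041). SUCLA2 rose with KD1 in A2058 (0.44 ± 0.059) and SKMEL2 (0.36 ± 0.064, limma adjusted p = 6.2e-05 and 0.00069) and not with KD2 (0.011 ± 0.059 and 0.0080 ± 0.064). Per length, SUCLA2 over SUCLG2 was 0.878 ± 0.0258 in A2058 KD1 and 0.5197 ± 0.0141 in KD2, against 0.342 ± 0.0249 in NT (SD, n = 3 each). In SKMEL2 it was 0.249 ± 0.0194 and 0.148 ± 0.00672, against 0.0902 ± 0.0105, and in A375 0.362 ± 0.06599 and 0.144 ± 0.0513, against 0.178 ± 0.00796. The ratio was a display choice made after the values were seen, with no test. Its level depends on the fixed length used for each gene, while its change between arms does not. In SKMEL2 SUCLA2 was called up over both hairpins (0.18 ± 0.055, limma adjusted p = 0.015) but not without NT replicate 2 (adjusted p = 0.078).

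Fumarase (FH) fell in A2058 (-0.37 ± 0.051) and A375 (-0.41 ± 0.12, limma adjusted p = 8.8e-05 and 0.019) and was not called in SKMEL2 (0.043 ± 0.038). In A2058 KD2 was called (-0.63 ± 0.059) and KD1 was not (-0.11 ± 0.059, limma adjusted p = 0.12), and the hairpins differed (limma adjusted p = 1.7e-05). In A375 KD2 was called (-0.51 ± 0.14) and KD1 was not (-0.31 ± 0.14, limma adjusted p = 0.092), with no difference between the hairpins passing the test. The A375 call of FH was lost without NT replicate 2 or 3 (adjusted p = 0.068 and 0.083), and its value was -0.69 after quantile normalization. The malate dehydrogenases of cytosol (MDH1) and mitochondria (MDH2), partners in the malate-aspartate shuttle, fell in A2058 and SKMEL2. MDH1 (ENSG00000014641, GRCh38 chromosome 2, 63588609 to 63607197, plus strand) gave 40.5, 38.7 and 43.9 FPKM in KD1, 35.8, 40.2 and 35.8 in KD2 and 44.8, 47.8 and 51.4 in NT, all in A2058. MDH1 in SKMEL2 gave 34.03, 28.01 and 31.4 FPKM in KD1, 32.4, 28.6 and 31.5 in KD2 and 40.2, 40.6 and 39.9 in NT. MDH1 in A375 gave 28.9, 32.4 and 29.6 FPKM in KD1, 27.4, 31.96 and 32.5 in KD2 and 30.8, 33.6 and 32.5 in NT, with overlapping arms. Either hairpin put all MDH1 libraries of A2058 and SKMEL2 below their controls (-0.29 ± 0.058 and -0.37 ± 0.059, limma adjusted p = 0.0011 and 0.00035).

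MDH2 (ENSG00000146701, GRCh38 chromosome 7, 76048051 to 76067508, plus strand) had 37.4, 38.7 and 39.7 FPKM in KD1, 30.01, 30.5 and 29.2 in KD2 and 43.7, 44.6 and 47.9 in NT of A2058. In SKMEL2 MDH2 had 85.8, 78.7 and 84.998 FPKM in KD1, 76.9, 76.8 and 76.5 in KD2 and 118, 117 and 116 in NT. MDH2 in A375, its highest line, had 123, 113 and 136 FPKM in KD1, 158, 134 and 105 in KD2 and 141, 132 and 168 in NT. All MDH2 knockdown libraries of A2058 and SKMEL2 were under their controls (-0.41 ± 0.039 and -0.55 ± 0.031, limma adjusted p = 4.6e-06 and 6.1e-07), while in A375 the arms overlapped (-0.20 ± 0.14, limma adjusted p = 0.26). The A375 value depended on scaling, and was -0.59 after quantile normalization (limma adjusted p = 2.4e-05).

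**Figure D4:**
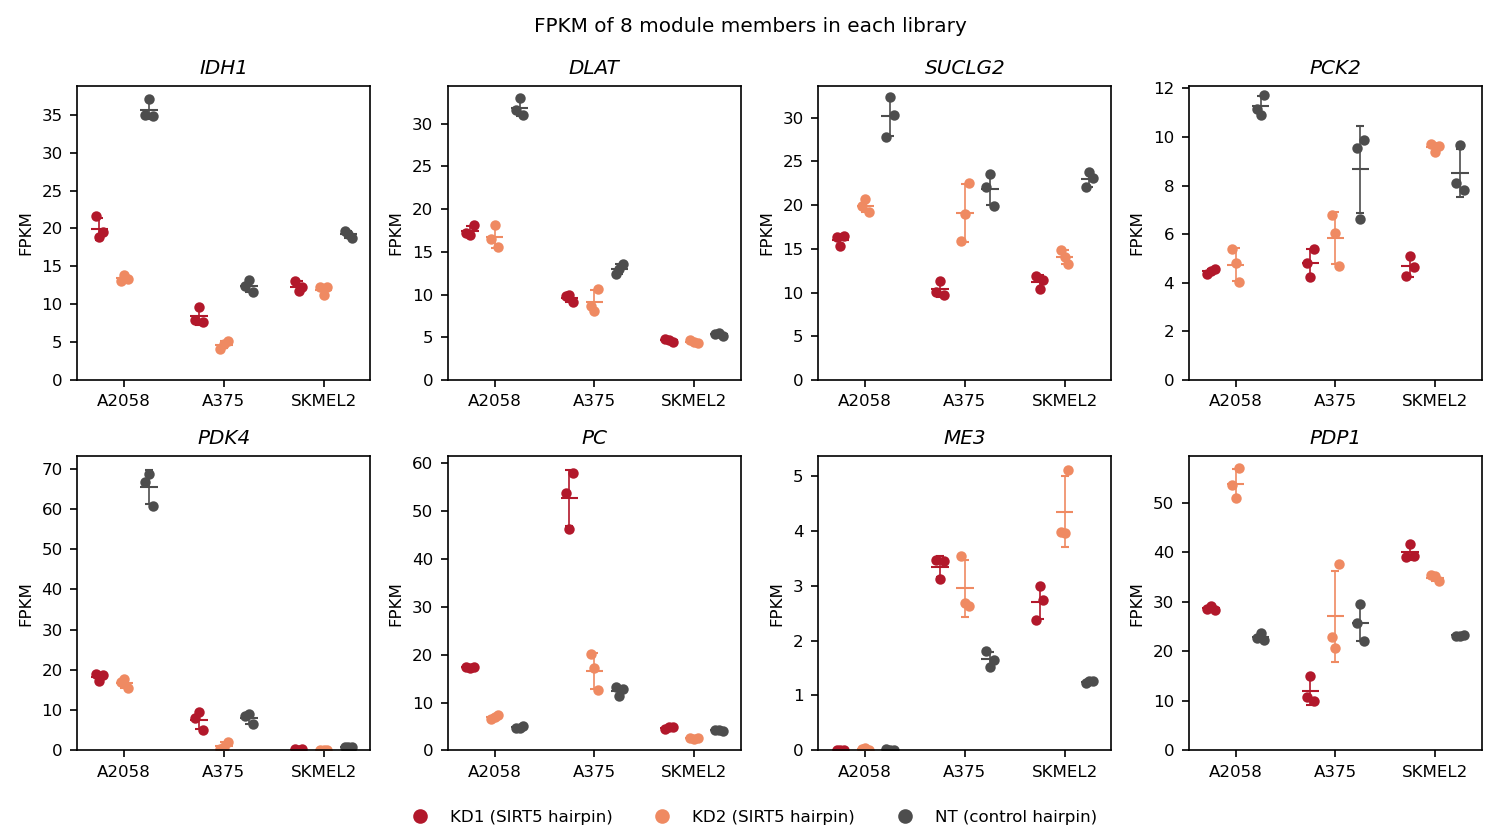
FPKM of IDH1, DLAT, SUCLG2, PCK2, PDK4, PC, ME3 and PDP1 in each library (points), with the mean (horizontal line) and SD (bar) of the 3 libraries of KD1, KD2 and NT in each line, on linear axes from 0. In A2058, PC stands at 17.4 FPKM in KD1 and 6.95 in KD2, against 4.85 in NT, and IDH1 at 19.98 and 13.4, against 35.7.

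Pyruvate carboxylase (PC), the biotin enzyme that refills oxaloacetate, was among the members with the largest increases over the lines and was higher with KD1 than with KD2 in each. PC (ENSG00000173599, GRCh38 chromosome 11, 66848417 to 66958386, minus strand) in A2058 was at 17.49, 17.2 and 17.51 FPKM in KD1, 6.46, 7.08 and 7.32 in KD2 and 4.76, 4.595 and 5.19 in NT. A375 libraries held PC at 53.8, 46.4 and 57.98 FPKM in KD1, 20.2, 17.1 and 12.6 in KD2 and 13.2, 11.3 and 12.8 in NT. SKMEL2 libraries held PC at 4.41, 4.95 and 4.81 FPKM in KD1, 2.54, 2.43 and 2.53 in KD2 and 4.32, 4.18 and 4.09 in NT. KD1 was above the controls in each line, KD2 was above them in A2058, overlapped them in A375 and was below them in SKMEL2. KD1 held 3.59 and 4.24 times the control mean in A2058 and A375, and 1.13 times in SKMEL2. The line effects were 1.11 ± 0.051, 1.21 ± 0.15 and -0.25 ± 0.045 (limma adjusted p = 3.0e-08, 0.00020 and 0.00098), and PC had the smallest p of the 33 members in the F-test between lines (limma adjusted p = 2.0e-08). KD1 exceeded KD2 by 1.27 ± 0.059, 1.65 ± 0.17 and 0.80 ± 0.052 in A2058, A375 and SKMEL2 (limma adjusted p = 2.0e-08, 6.0e-05 and 8.7e-07). PC shares 8.505% of its exonic length with LRFN4 on the other strand.

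PCK2 (ENSG00000100889, GRCh38 chromosome 14, 24094053 to 24110598, plus strand) encodes the mitochondrial phosphoenolpyruvate carboxykinase, which draws oxaloacetate off the cycle and is a target of the stress factor ATF4. A2058 had PCK2 at 4.38, 4.47 and 4.58 FPKM in KD1, 5.37, 4.83 and 4.05 in KD2 and 11.1, 10.9 and 11.7 in NT. A375 had PCK2 at 4.801, 4.23 and 5.38 FPKM in KD1, 6.803, 6.06 and 4.697 in KD2 and 9.54, 6.62 and 9.87 in NT. SKMEL2 had PCK2 at 4.27, 5.12 and 4.63 FPKM in KD1, 9.71, 9.398 and 9.64 in KD2 and 8.1000, 9.66 and 7.83 in NT. KD1 was below the controls in each line, and KD2 was below them in A2058 and overlapped them in A375 and SKMEL2. The effect was -1.21 ± 0.071 in A2058, -0.65 ± 0.16 in A375 and -0.32 ± 0.070 in SKMEL2 (limma adjusted p = 1.6e-07, 0.0078 and 0.0028). In SKMEL2 the fall belonged to KD1 (-0.80 ± 0.081), with KD2 at 0.16 ± 0.081, and the hairpins differed by -0.97 ± 0.081 (limma adjusted p = 4.2e-06).

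The mitochondrial malic enzymes turn malate into pyruvate, with NAD for ME2 and NADP for ME3. ME3 (ENSG00000151376, GRCh38 chromosome 11, 86441108 to 86672636, minus strand) rose where it was expressed. In A375 ME3 ran at 3.46, 3.12 and 3.45 FPKM in KD1, 3.55, 2.68 and 2.63 in KD2 and 1.803, 1.53 and 1.65 in NT. In SKMEL2 ME3 ran at 2.37, 2.99 and 2.73 FPKM in KD1, 3.98, 3.96 and 5.09 in KD2 and 1.22, 1.27 and 1.27 in NT. All knockdown libraries of both lines were above their controls. The increases were 0.75 ± 0.12 and 1.16 ± 0.087 (limma adjusted p = 0.00099 and 3.1e-06), and in SKMEL2 KD2 exceeded KD1 (KD1 minus KD2 -0.60 ± 0.10, limma adjusted p = 0.00048). In A2058 ME3 was at 2, 3 and 0 reads in KD1 and 4, 7 and 0 in KD2, against 3, 0 and 1 in NT, too few for a comparison. ME2 rose with KD1 in A2058 (0.55 ± 0.045, limma adjusted p = 1.4e-06), where KD2 gave 0.045 ± 0.045, and in A375 it fell with KD2 (-0.52 ± 0.17, limma adjusted p = 0.035).

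The promoter sequences of 4 members that fell (IDH1, DLAT, PCK2, PDK4) and of the 2 with the largest increases (PC, ME3) are given here because these genes carry the results above. Each runs 5′ to 3′ over 300 bases, 250 before to 50 after the start farthest upstream in RefSeq (build GRCh38.p14), which listed a promoter for 31 of the 33 members. Capitals mark matches to CCAAT (the CCAAT box), CACGTG (the E-box), TGACNNNGC (the antioxidant response element) and TGTTTAC (a FOXO site), on either strand, so that ATTGG is CCAAT read from the other strand. No marked matches overlap.
IDH1 (chr2:208255022-208255321, minus strand): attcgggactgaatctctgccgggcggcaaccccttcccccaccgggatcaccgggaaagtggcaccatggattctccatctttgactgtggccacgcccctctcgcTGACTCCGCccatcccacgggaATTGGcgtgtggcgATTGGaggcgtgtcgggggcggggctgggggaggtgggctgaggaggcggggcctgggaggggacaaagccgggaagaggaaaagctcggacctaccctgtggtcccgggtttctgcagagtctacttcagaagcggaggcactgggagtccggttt
DLAT (chr11:112025158-112025457, plus strand): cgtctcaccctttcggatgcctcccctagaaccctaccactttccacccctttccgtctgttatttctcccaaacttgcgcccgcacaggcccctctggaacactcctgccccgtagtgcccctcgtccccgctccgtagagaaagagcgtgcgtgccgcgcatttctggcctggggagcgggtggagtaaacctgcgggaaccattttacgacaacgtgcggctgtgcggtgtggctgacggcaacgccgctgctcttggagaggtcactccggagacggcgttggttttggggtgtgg
PCK2 (chr14:24094061-24094360, plus strand): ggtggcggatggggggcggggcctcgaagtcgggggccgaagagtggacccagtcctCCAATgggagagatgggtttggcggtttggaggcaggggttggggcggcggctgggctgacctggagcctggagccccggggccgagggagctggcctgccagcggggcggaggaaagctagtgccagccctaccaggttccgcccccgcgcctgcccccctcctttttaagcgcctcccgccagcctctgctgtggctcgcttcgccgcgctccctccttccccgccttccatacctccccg
PDK4 (chr7:95596467-95596766, minus strand): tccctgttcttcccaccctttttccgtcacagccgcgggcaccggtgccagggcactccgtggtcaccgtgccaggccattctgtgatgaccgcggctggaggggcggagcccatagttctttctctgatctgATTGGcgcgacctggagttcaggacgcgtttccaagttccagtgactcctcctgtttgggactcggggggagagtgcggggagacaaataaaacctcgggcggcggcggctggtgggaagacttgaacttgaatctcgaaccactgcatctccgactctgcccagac
PC (chr11:66958334-66958633, minus strand): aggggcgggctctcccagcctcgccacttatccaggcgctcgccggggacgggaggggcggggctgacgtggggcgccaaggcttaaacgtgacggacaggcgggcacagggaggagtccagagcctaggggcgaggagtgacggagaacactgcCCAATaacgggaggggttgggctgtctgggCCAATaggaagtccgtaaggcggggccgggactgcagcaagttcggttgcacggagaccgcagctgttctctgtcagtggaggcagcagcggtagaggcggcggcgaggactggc
ME3 (chr11:86672567-86672866, minus strand): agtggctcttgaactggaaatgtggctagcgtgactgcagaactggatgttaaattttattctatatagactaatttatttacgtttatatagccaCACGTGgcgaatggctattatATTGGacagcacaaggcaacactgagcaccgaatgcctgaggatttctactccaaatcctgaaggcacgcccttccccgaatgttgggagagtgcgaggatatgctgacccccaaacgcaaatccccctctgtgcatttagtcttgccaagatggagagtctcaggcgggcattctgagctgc
CCAAT was found in 20 of 31 member promoters (64.5%), beside 35.7% of all 27305 promoters of the same length. CACGTG was in 4 (12.9%, beside 7.41% of all), TGACNNNGC in 5 (16.1%, beside 13.6%) and TGTTTAC in 0 (beside 3.44% of all). Of the 6 sequences, DLAT had none of these motifs, IDH1 had the antioxidant response element besides CCAAT, ME3 had the E-box besides CCAAT, and PCK2, PDK4 and PC had CCAAT alone. CCAAT stood in promoters of rising and of falling genes. A match of letters describes the sequence and shows no binding.

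The hairpins were compared directly for every member. In A2058, 19 of 31 members were higher in KD1 and 7 higher in KD2, where 40.7% and 31.6% of all genes were. The members' median for KD1 minus KD2 was 0.20, beside 0.061 over all genes. In SKMEL2, 17 of 31 members were higher in KD1 and 9 higher in KD2, beside 35.2% and 33.3% of all genes, with a median of 0.19 against 0.0013. In A375, 8 of 32 members were higher in KD1 and 5 higher in KD2, beside 21.2% and 16.9%, with a median of 0.16 against 0.065. In each line DLD, PDHA1, PDHB, PDK3, PC and ME2 were higher in KD1 than in KD2, and ACO1, SUCLG2, PDK2 and MPC2 were lower in KD1.

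Called against the controls in the same direction with each hairpin were 5 rising and 11 falling members in A2058 (beside 19.3% and 17.7% of all genes). A375 had 3 and 4 (beside 12.9% and 9.38%), and SKMEL2 had 4 and 7 (beside 17.5% and 15.9%). Opposite calls were made for 5 members in A2058 (IDH2, DLST, DLD, PDHB and PDK3, beside 15.5% of all genes). SKMEL2 had 6 of them (IDH3B, OGDH, DLD, PC, ME2 and MPC2, beside 12.4%). A375 had 0 by limma, beside 3.35% of all genes, and 1 (MPC2) at an unadjusted p under 0.05. With KD1 alone 15 A2058 members rose and 14 fell (beside 38.6% and 31.9% of all genes), and with KD2 alone 5 and 18 (beside 33% and 37.2%). In SKMEL2 KD1 gave 13 rising and 11 falling (beside 34.8% and 32.8%), and KD2 gave 7 and 16 (beside 32.2% and 31.1%). With KD1 alone 8 A375 members rose and 7 fell (beside 26.6% and 19.8% of all genes), and with KD2 alone 5 rose and 10 fell (beside 22.6% and 20.9%). The residual SIRT5 RNA also differed, at 8.44%, 3.89% and 7.01% of the control mean in KD1 and 20.04%, 12.4% and 19.98% in KD2 of A2058, A375 and SKMEL2. Its part in these differences was not tested.

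**Figure D5:**
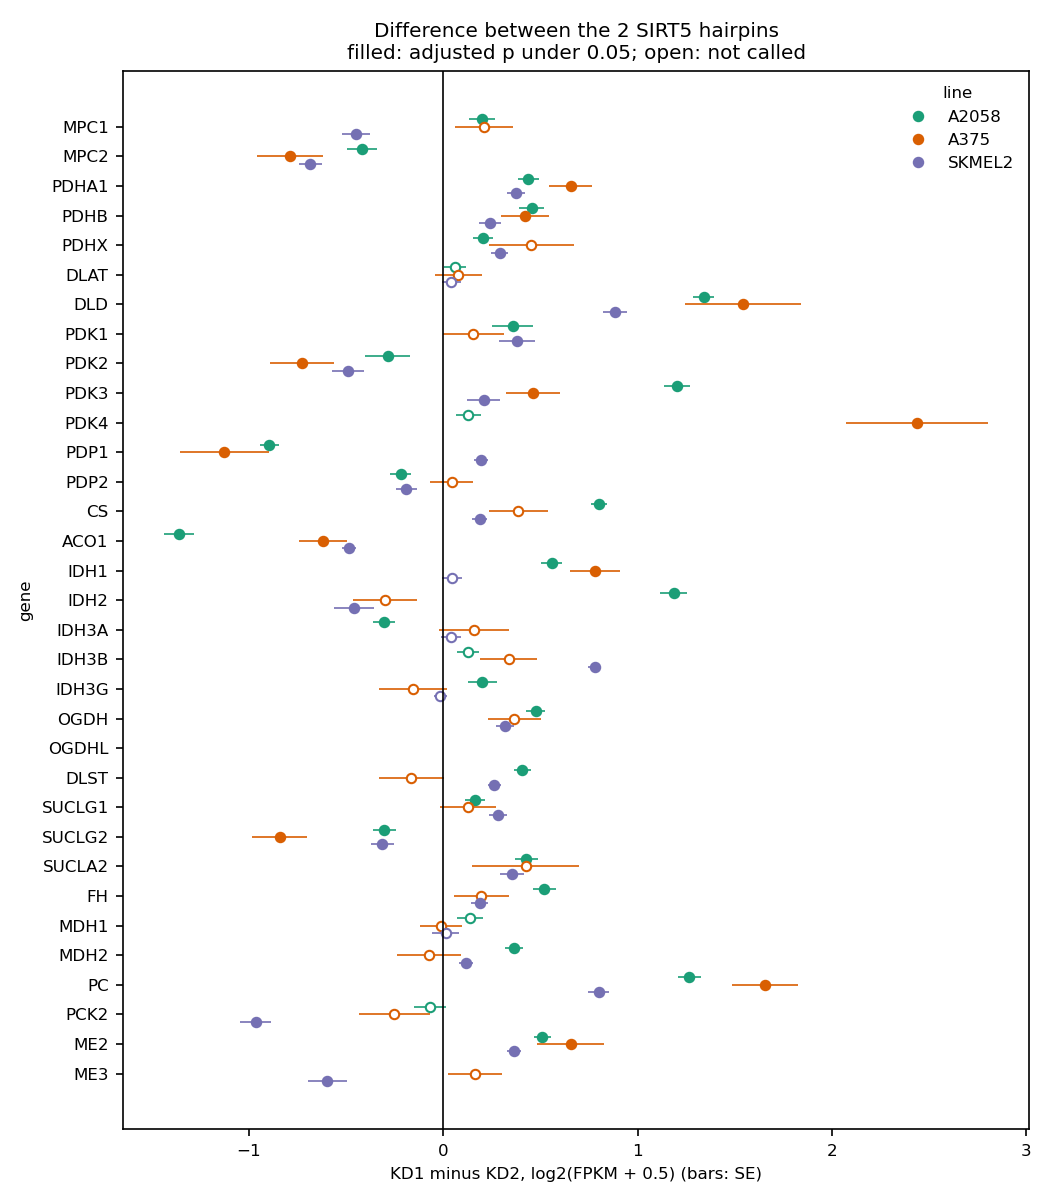
KD1 minus KD2 on the log2(FPKM + 0.5) scale (horizontal axis) for each member (vertical axis) in A2058, A375 and SKMEL2, with SE as bars and filled points for an adjusted p under 0.05. DLD and PC lie to the right of 0 in each line, and ACO1 and MPC2 to the left, with PDK4 in A375 the farthest right at 2.44.

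The knockdown effect differed between lines for 22 of 33 members (limma F-test), beside 61.1% of all genes. PC, ME3, PDP1 and DLAT had the smallest adjusted p-values, 2.0e-08, 5.2e-07, 6.1e-06 and 1.6e-05. ME3 had 0 to 7 reads per A2058 library, where its value can hardly move, so its test does not compare a measured response of that line. For PC the effect in SKMEL2 lay 1.46 below that in A375 and 1.36 below that in A2058 (limma adjusted p = 4.1e-08 and 1.9e-07). PDP1 in A375 lay 1.30 below A2058 (limma adjusted p = 9.5e-06). The DLAT effect in SKMEL2 was nearer to 0 than that in A2058 by 0.67 ± 0.094 (limma adjusted p = 1.4e-05). Members for which the test did not pass included SUCLG2, PDK4 (adjusted p = 0.074) and MDH2 (adjusted p = 0.057).

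The control cells of the lines differed in the module. SKMEL2 controls were lower than A2058 controls for 21 of 33 members and higher for 4, beside 32.0% and 37.2% of all genes. A375 controls were lower than A2058 controls for 17 and higher for 10, beside 35.1% and 35.6%. Against A375 controls, SKMEL2 controls were lower for 17 and higher for 3, beside 34.2% and 38.8%. PDK4 set the lines furthest apart, with 0.878 ± 0.0428 FPKM in SKMEL2, 7.98 ± 1.33 in A375 and 65.4 ± 4.15 in A2058 (SD, n = 3 each), or -5.58 ± 0.25 for SKMEL2 minus A2058 (limma adjusted p = 8.3e-15). MDH2 went the other way, at 117 ± 0.988 FPKM in SKMEL2 and 147 ± 18.8 in A375, against 45.4 ± 2.201 in A2058. Line and any batch in which a line was processed cannot be told apart in these values.

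Other genes of the pathway were listed by role. Of 36 such genes, 34 were tested over the 3 lines, 7 rose, 14 fell and 13 did not pass. In A2058 5 rose and 17 fell of 32, in A375 5 and 5 of 33, and in SKMEL2 7 and 15 of 33, beside the shares of all genes given above. Among those furthest from 0 were NNT, the mitochondrial transhydrogenase (-0.85 ± 0.054), SLC25A10, the dicarboxylate carrier (-0.67 ± 0.073) and ACAT1, the mitochondrial acetoacetyl-CoA thiolase (-0.67 ± 0.050). Their limma adjusted p-values over the lines were 9.4e-12, 5.3e-08 and 1.5e-10.

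In the authors' deposited table for A2058, 3 members rose and 8 fell of 32 listed at a DESeq2 adjusted p under 0.05. The authors' deposited table for A375 has 5 and 5 of 33, that for SKMEL2 4 and 10 of 33. The authors' deposited table over all lines has 4 and 12 of 33, where limma called 11 and 17, and there ME3 is at 1.20, PC at 0.81 and OGDHL at -1.49 (log2 fold change). Limma called 9 up and 18 down in A2058, 8 and 10 in A375, 5 and 14 in SKMEL2 and 11 and 17 over all lines. Of these calls, 10 in A2058, 10 in A375, 12 in SKMEL2 and 16 over all lines were called the same way in the authors' deposited table, and 0 the opposite way. Of the 5 members that fell in all 3 lines by limma, IDH1 and DLAT also did so there. SUCLG2 and PDHA1 were not called there in A375 (DESeq2 adjusted p = 0.16 and 0.52), nor PDHA1 and PCK2 in SKMEL2 (0.20 and 0.53). CS in A2058 (0.30) and PDK4 in A375 (0.52) were not called there either. For PDK4 in SKMEL2, which was not tested here, the authors' deposited table gives a log2 fold change of -2.50 (adjusted p = 4.2e-07), and for OGDHL in A2058 one of -2.61 (adjusted p = 1.6e-05).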

How the data were processed

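RNA of 27 libraries was sequenced as paired reads of 50 nucleotides. Trimming was by Trimmomatic 0.39, alignment by STAR 2.7.3a to GRCh38, gene counting by featureCounts (Subread 2.0.0) over GENCODE 34 and testing by DESeq2 1.28.1, from the submitters' processing notes, which also list FastQC and MultiQC. The authors deposited FPKM of 26004 genes and DESeq2 tables with a log2 fold change, p-values and a base mean, which is a normalised signal.

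FPKM are not counts, so limma 3.58.1 (R 4.3.3) was run on log2(FPKM + 0.5) with its trend option, and p-values were adjusted (Benjamini-Hochberg) over all genes at 1 FPKM or more in 3 or more libraries of the fit. Each line was fitted alone, and 1 fit held all 27 libraries. FPKM times the base mean over the mean FPKM gave whole reads for every value above 0, within 0.05, which supplied the depths and a limma-voom alternative. Fits were also run on simulated counts with the same added spread in every line and equal effects of both hairpins. That run does not cover contrasts where the hairpins differ or a line is noisier. Per-library values are given for members called with both hairpins in at least 2 lines, the 6 of largest effect over the lines, the 4 with opposite calls and largest hairpin difference, and the 4 with the smallest p between lines. The members, lists and this rule were chosen with earlier results of these data known. GENCODE 44 (GRCh38) gave positions for all 33 members. In it, 15 share exonic bases with another listed gene and 9 have a pseudogene named after them, so their values are less certain.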

Additional observations from a re-analysis of the deposited data

Results flagged for a closer look

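Of 99 sets of 6 knockdown libraries (33 members in 3 lines), 2 held a library far from the others, by a gap of more than 0.625 of the range. Each set pools KD1 and KD2, which often differed, so a single far library is harder to flag. No rate expected by chance is given for that reason. FH in A375 KD2 replicate 1, the shallowest library, was 31.4 FPKM, with the other 5 at 41.9 to 45.5. PDP2 in A375 KD1 replicate 1 was 8.17 FPKM, with the other 5 at 6.52 to 7.101.

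The knockdown effect differed between the 3 lines, by limma's F-test with the adjusted p in brackets, for PC (2.0e-08), ME3 (5.2e-07), PDP1 (6.1e-06), DLAT (1.6e-05), CS (5.0e-05), PDK2 (0.00011), PDHB (0.00027) and PCK2 (0.00033). It also differed for SUCLG1 (0.00064), ACO1 (0.0012), OGDHL (0.0017), IDH1 (0.0019), PDK1 (0.0019), FH (0.0025) and DLST (0.0043). Nearer the threshold were IDH3G (0.0085), ME2 (0.0087), PDP2 (0.011), OGDH (0.012), PDHA1 (0.014), PDHX (0.014) and MDH1 (0.036). Among these, as the mean of both hairpins, PC was called up in A2058 and A375 and down in SKMEL2, and PDP1 up in A2058 and SKMEL2 and down in A375. By the same mean PDK2 was called up in A375 and down in A2058 and SKMEL2, and DLST up in A375 and down in SKMEL2. These calls do not require the hairpins to agree. PC in SKMEL2 rose with KD1 (0.15 ± 0.052) and fell with KD2 (-0.65 ± 0.052). PDP1 in A375 was called with KD1 alone, and DLST in A375 and SKMEL2 with KD2 alone. PDK2 was called with KD2 alone in A375 and with KD1 alone in A2058 and SKMEL2. ME3 was nearly absent in A2058 (0 to 7 reads per library) and OGDHL passed the filter in no single line. Their tests rest partly on values too low to compare.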

How the results depend on the processing

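No member effect, as the mean of both hairpins in a line or over the lines, changed direction while called in any alternative run. Effects of single hairpins, between hairpins and between lines were followed only as counts, not member by member. Direction and call were kept by 126 of 127 member effects with a pseudocount of 0.1, 125 of 127 with 1, 123 of 127 without the filter, 115 of 117 with the filter met in every library, 119 of 127 after quantile normalization, 119 of 127 after shifting libraries to 1 median, 123 of 127 without the variance trend, 126 of 127 with robust empirical Bayes, 121 of 127 with limma-voom on recovered reads and 82 of 94 in 1 fit of all libraries. Among counts of members, SKMEL2 controls above A2058 controls were 2 in place of 4 with the filter met in every library, and above A375 controls 7 in place of 3 after quantile normalization. With the replicate number as a block (replicate block), A375 had 7 rising and 8 falling members, and 122 of 127 effects kept their call. The numbers were not taken as pairs, since same-numbered libraries of a line correlated in their deviations above 0.1 in 2 of 9 pairs in A375 (range -0.624 to 0.433) and in no pair of A2058 or SKMEL2.

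Leaving out 1 library at a time kept 1658 of 1731 effects of the mean of both hairpins. For knockdown, this gave 8 to 10 rising and 16 to 18 falling in A2058, 5 to 11 rising and 5 to 12 falling in A375, 4 to 6 rising and 13 to 14 falling in SKMEL2 and 10 to 12 rising and 15 to 18 falling over the lines. KD1 alone gave 13 to 15 rising and 12 to 14 falling (A2058), 5 to 9 rising and 4 to 9 falling (A375) and 12 to 13 rising and 11 to 12 falling (SKMEL2). KD2 alone gave 5 to 6 rising and 17 to 19 falling, 3 to 10 rising and 5 to 12 falling and 6 to 7 rising and 15 to 17 falling in the same lines, and KD1 minus KD2 gave 16 to 20 rising and 6 to 8 falling, 5 to 10 rising and 5 to 6 falling and 15 to 17 rising and 9 to 9 falling. Control cells gave 8 to 10 rising and 15 to 18 falling for A375 minus A2058, 3 to 4 rising and 19 to 21 falling for SKMEL2 minus A2058 and 3 to 6 rising and 15 to 17 falling for SKMEL2 minus A375. Members that differed between lines numbered 20 to 29, the highest without A375 KD2 replicate 3. Without that library the rising members of A375 KD2 were 10 in place of 5. The causes of these shifts were not tested. The A375 counts rest on the fewest reads per library.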

Other observations

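The other mitochondrial sirtuins were read in the same libraries. SIRT4, a mitochondrial sirtuin reported to act on the lipoyl groups of the PDH complex, had, in A375, 4.496, 4.04 and 4.54 FPKM in KD1 and 3.76, 2.88 and 1.73 in KD2, against 1.86, 1.04 and 2.56 in NT. Its effect there was 0.82 ± 0.24 (limma adjusted p = 0.018), with KD1 called (1.12 ± 0.28, limma adjusted p = 0.0078) and KD2 not (0.51 ± 0.28, limma adjusted p = 0.15). The difference between the hairpins did not pass the test (limma adjusted p = 0.11), and KD2 replicate 3 was within the range of the controls. Over both hairpins SIRT4 was not called in A2058 (0.16 ± 0.16) or SKMEL2 (0.21 ± 0.11), with limma adjusted p = 0.41 and 0.11. KD1 alone was called in SKMEL2 (0.42 ± 0.12, limma adjusted p = 0.013), with KD2 at -0.00062 ± 0.12. Averaged over the 3 lines, SIRT4 rose by 0.39 ± 0.11 (limma adjusted p = 0.0043). SIRT3, the main deacetylase of the mitochondrial matrix, stood in A2058 at 2.36, 2.997 and 2.995 FPKM in KD1 and 2.198, 2.55 and 2.07 in KD2, against 3.301, 3.56 and 3.84 in NT. All its knockdown libraries of that line were below the controls, with an effect of -0.43 ± 0.087 (limma adjusted p = 0.0012), and the SIRT3 effect was 0.20 ± 0.13 in A375 and -0.18 ± 0.050 in SKMEL2 (limma adjusted p = 0.23 and 0.0092).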
